A study of Rattus norvegicus with 23 samples.

Results

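Long intergenic noncoding RNAs (lincRNAs) are transcripts that are spliced and polyadenylated like messenger RNAs in many cases, lie between protein-coding genes and are not translated into a known protein. They are usually made at low levels. Some act on the gene beside them while it is being transcribed, some hold nuclear bodies together or bind chromatin proteins, and for most no function is known. The rows of the rat lung expression table whose biotype was lincRNA were taken as members, which gave 892 of 19249 rows in all. The rule used the annotation only and no measured value.

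The samples were lungs of male rats exposed, whole body, to eucalyptus wood smoke on a schedule modelled on wildland fire crews' shifts. The rats, 24 in number, were randomized by weight to filtered air, a low smoke level set by a carbon monoxide target of 10 ppm, or a high smoke level set by a target of 20 ppm, with 8 planned in each group. Exposure ran for 4 days in the first week and, after a break of 3 days, for 3 days in the second week. Strain and age were not given in the sources used here. RNA came from about 35 mg of frozen whole lung whose RNA integrity numbers were 9 or higher, and libraries were made from 1 µg. The table held 22 libraries, of which 7 were air, 8 low smoke and 7 high smoke. One air sample was lost to poor quality according to the labels, and the eighth high smoke sample, labelled as removed, was not analysed here. Each library was from 1 rat as far as the labels say, so that the spread between libraries includes the spread between animals. A carbon monoxide target is a measure of smoke density and not of particle dose.

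Values were the authors' normalized counts, that is, read counts per row divided by a scaling factor for each library. The libraries held the equivalent of 8484131 to 12055512 reads each. Counts were not divided by transcript length, so that levels are compared mainly between groups for 1 row. Rankings, shares and ratios of rows below describe counts and not amounts of RNA molecules. All 7 alveolar type 2 marker genes were measured in every group, as is typical of lung, and their summed normalized counts ran from 141697 in a low smoke library to 254412 in a high smoke library. High smoke libraries 1, 3 and 7 stood apart from the others on the first principal component of the tested genes, which held 19.7% of the variance: their scores were 51.49, 41.7 and 36.49, against 0.3 to 8.77 in the other high smoke libraries and -21.59 to -0.29 in air and low smoke. Small nucleolar RNA rows took 0.472%, 0.454% and 0.401% of their counts, against 0.168% to 0.324% in the remaining high smoke libraries and 0.0296% to 0.135% in air. The changes of lincRNA rows in high smoke are therefore given with and without these 3 libraries.

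Of the 892 lincRNA rows, 794 carried only a genome clone name, 92 a provisional LOC or RGD name and 6 another symbol (AA926063, Kantr, Ly6l, Pilrb, Rfwd3 and Tug1). Of these, 32 symbols matched a gene in the RefSeq annotation of the later assembly GRCr8, which held 27 as long noncoding RNA and 5 as protein coding. The row Rfwd3, for example, has the name of a ubiquitin ligase gene, and Ly6l that of a gene of the Ly6 surface protein family. The lincRNA biotype of this table thus includes a few loci that a later annotation counts as coding. The rows spanned 369 to 298201 bases of the genome with a median of 4522. Chromosome 1 held 116 of them, chromosome X 39 and chromosome Y 0.

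Very few counts of lung RNA fell in lincRNA rows. Their share of all normalized counts was 0.403% to 0.575% in air with a median of 0.492%, 0.420% to 0.533% in low smoke with a median of 0.478%, and 0.484% to 0.578% in high smoke with a median of 0.498%. The 3 groups overlapped in this share. A small number of rows held most of it: the 10 rows with the highest means took 55.04% of all lincRNA counts, and 3 neighbouring rows of chromosome 1, AC134224.1, AC134224.2 and AC134224.3, took 33.4%. The number of lincRNA rows with a normalized count of at least 1 was 571 to 726 in single libraries.

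A mean normalized count of at least 10 over the 22 libraries was required for testing, and 259 lincRNA rows met it. The other 633 were not tested, 214 of them with a mean below 1 and 419 with a mean from 1 to 10; in 30 of the untested rows the mean was at least 10 in some group. Of the tested rows, 199 had a mean of 10 to 100, 52 of 100 to 1000 and 8 over 1000. The standard deviation between air libraries was 29.0% of the mean in the median tested row, with a range from 4.75% in AABR07021544.1 to 99.2% in AABR07059372.1.

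Sequences in hand were the RefSeq windows from 250 bases before to 50 bases after annotated starts, in GRCr8. They covered 22 lincRNA symbols with 34 windows, of which 6 symbols were tested rows and none was among the rows that passed a test below. The windows of Tug1 and Kantr are shown because they are the members with an established name as noncoding RNAs. Tug1 is a conserved, mostly nuclear RNA, and Kantr is an X-linked RNA named for its place beside Kdm5c. Capitals mark the letters GCGTG, the core bound by the aryl hydrocarbon receptor, a sensor of combustion products; TGACNNNGC, the core of the antioxidant response element bound by Nrf2, was searched as well, both motifs on both strands.
Tug1, chr14:82750485-82750784, minus strand, GRCr8: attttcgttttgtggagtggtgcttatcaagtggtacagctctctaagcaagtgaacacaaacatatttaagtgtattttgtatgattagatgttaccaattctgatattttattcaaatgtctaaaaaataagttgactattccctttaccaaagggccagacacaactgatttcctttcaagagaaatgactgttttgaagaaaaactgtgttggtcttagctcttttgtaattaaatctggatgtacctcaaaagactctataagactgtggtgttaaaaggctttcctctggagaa
Kantr, chrX:24909987-24910286, minus strand, GRCr8: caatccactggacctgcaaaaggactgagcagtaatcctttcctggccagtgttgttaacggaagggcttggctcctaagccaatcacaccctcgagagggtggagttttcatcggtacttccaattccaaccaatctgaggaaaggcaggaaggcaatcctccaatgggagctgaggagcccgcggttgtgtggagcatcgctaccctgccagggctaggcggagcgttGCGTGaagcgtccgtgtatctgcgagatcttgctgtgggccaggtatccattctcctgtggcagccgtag
GCGTG was found once in the Kantr window, at base 231, and was not found in that of Tug1; TGACNNNGC was in neither. Of all 33469 windows, 29.7% held GCGTG and 12.1% held TGACNNNGC, and among the 34 windows of lincRNA symbols 13 and 6 did. The Kantr window had 13 CpG dinucleotides and 56% G and C, that of Tug1 1 and 34%. These matches describe letters and not binding. Tug1 is described with the abundant rows below. Kantr had a mean of 35.4 ± 11.8 normalized counts in the 7 air libraries, 46.2 ± 7.21 in the 8 low smoke libraries and 46.8 ± 12.6 in the 7 high smoke libraries (each with its SD), a log2 difference of 0.42 between high smoke and air with an adjusted p of 0.132 in limma, which did not pass.

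The first comparison set high smoke against air. Log2(normalized count + 1) was compared with limma, a linear model whose estimate of the spread borrows from all genes, with Benjamini-Hochberg adjustment over the 14414 genes tested and a threshold of 0.05. Fold changes are on this log2(value + 1) scale and understate the change of rows with few counts. After high smoke, 25 of the 259 lincRNA rows passed, or 9.65%, against 16.3% of all genes tested. Of these 10 rose, where 9.21% of all genes rose, and 15 fell, where 7.05% of all genes fell. The median log2 difference of the tested lincRNA rows was -0.00, as it was over all genes. The strongest rises were those of AABR07069008.3 and AABR07035955.1, with 2.79-fold and 2.43-fold higher levels, and the rows from the AC134224 locus were the most counted among those that rose. Of the 25 changes, 4 were at least 2-fold.

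Most of these calls were lost without high smoke libraries 1, 3 and 7. Without them, 2 lincRNA rows passed, AABR07069008.3 and AABR07035955.1, and over all genes 0.861% passed; that fit has 4 high smoke libraries in place of 7. An exact two-sided rank-sum test on the 2 groups called 7 lincRNA rows (5.18% of all genes), all among the 25. Scaled to the same total, 9 rose (6.2% of all genes) and 22 fell (12.5% of all genes), and without a filter on low values 29 passed (11% of all genes). In the fit without high smoke libraries 1, 3 and 7, all 25 rows kept their direction. The median size of the change went in that fit from 0.71 to 0.53 on the log2 scale among the rises. Among the falls it went from 0.52 to 0.43. In 9 of the 10 rises and 11 of the 15 falls the most extreme high smoke library was 1, 3 or 7. The same count over all genes was not made, and these rows were picked by a fit that held those libraries. The counts are thus a description and not a trait of lincRNA rows. The part that these libraries' other features, such as their snoRNA share, have in the lincRNA changes was not tested.

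**Figure D1:**
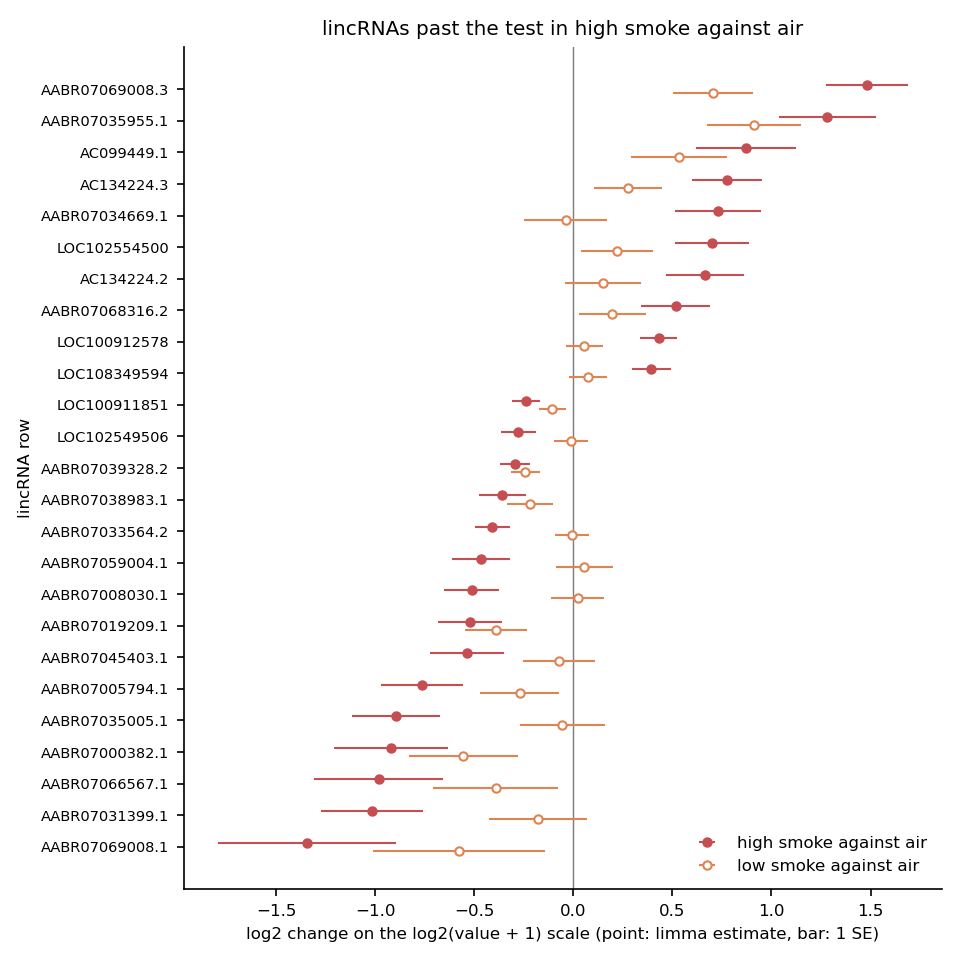
Log2 change of the 25 lincRNA rows that passed the limma test in high smoke against air, as points with bars of 1 standard error, on the log2(value + 1) scale; filled points are high smoke against air and open points low smoke against air. The 10 rises run from 0.39 to 1.48 and the 15 falls from -0.24 to -1.34, and the 2 sets of points share the air libraries.

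AABR07069008.3 lies on chromosome 8 at 5159163 to 5175805 on the minus strand (coordinates of rows are those of the deposited table, rn6, and give the whole gene), 41412 bases from Dync2h1, which encodes a motor protein of cilia. It had 18.5 to 59.7 normalized counts in air with a median of 31.1, 41.8 to 71.3 in low smoke with a median of 53.6, and 62.2 to 137 in high smoke with a median of 102. All 7 high smoke libraries were above all 7 air libraries, and low smoke overlapped both. AABR07069008.3 rose by 1.48 (SE 0.21, limma adjusted p = 0.000198). Without high smoke libraries 1, 3 and 7 it was 1.35 and still passed.

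Its neighbour AABR07069008.1 lies upstream on the same strand, at 5177028 to 5188399, with a gap of 1223 bases between them, and went the other way. This row was chosen after its values were seen, since its mean was under 20 in both groups. It had 5.42 to 20.7 normalized counts in air with a median of 18.3, 4.797 to 31.7 in low smoke with a median of 7.93, and 1.498 to 19.1 in high smoke with a median of 3.98. The groups overlapped, through high smoke library 6 with 19.1 and air library 3 with 5.42. The change was -1.34 (SE 0.45, limma adjusted p = 0.0425), and it was -0.57 without high smoke libraries 1, 3 and 7 and no longer passed. The ratio of the upper-count row to its neighbour put the opposite moves in 1 number: AABR07069008.3 had 0.979 to 5.21 times the counts of AABR07069008.1 in air, 2.06 to 12.6 times in low smoke and 5.98 to 69.5 times in high smoke, with medians of 2.08, 6.47 and 25.6. Every high smoke ratio was above every air ratio. Both rows had already passed in opposite directions, and AABR07069008.3 alone did not overlap air, so this separation was largely fixed beforehand. The ratios of high smoke libraries 1, 3 and 7 (60.8, 47.1 and 69.5) were above those of the other high smoke libraries. They divide by only 2.26, 1.71 and 1.498 normalized counts of AABR07069008.1, near the floor, so their size is uncertain. The ratio of the 2 rows was not tested. Counts of both rows were mostly not whole numbers of reads (whole to within 0.02 reads in 3 and 1 of 22 libraries); how reads were assigned to rows was not given in the sources used here.

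AABR07035955.1, on chromosome 12 at 28976181 to 28981888 on the minus strand, lies inside the interval of Galnt17, a glycosyltransferase gene on the opposite strand. It had 86.5 to 164 normalized counts in air with a median of 123, 157 to 311 in low smoke with a median of 241, and 153 to 772 in high smoke with a median of 254. High smoke library 5 with 153 was the single high smoke library inside the range of air, and library 1 with 772 was far above the rest. The rise was 1.28 (SE 0.25, limma adjusted p = 0.00168), and 0.99 without libraries 1, 3 and 7, which still passed. Galnt17 itself had a log2 difference of -0.28 with an adjusted p of 0.375. The row's reads were whole in 1 of 22 libraries. Whether counting used the strand was not given in the sources used here, so reads of the 2 genes may not be fully separated.

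The AC134224 locus is 3 lincRNA rows in a line on the minus strand of chromosome 1, from 221151827 to 221158793, with gaps of 1282 and 1187 bases. The outermost rows rose and the middle one did not pass. AC134224.3 had 2119 to 5826 normalized counts in air, 3888 to 7786 in low smoke and 5885 to 11403 in high smoke, with medians of 4695, 4912 and 6988. High smoke and air did not overlap for this row. The rise was 0.78 (SE 0.18, limma adjusted p = 0.00488), and 0.60 without high smoke libraries 1, 3 and 7, which no longer passed.

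AC134224.2 had 985 to 2632 normalized counts in air with a median of 2133, 1490 to 2647 in low smoke with a median of 1915 and 1978 to 3898 in high smoke with a median of 2923. It rose by 0.67 (SE 0.20, limma adjusted p = 0.0238), with overlapping groups, and by 0.36 without the 3 libraries, which did not pass. AC134224.1, between them, had 5121 to 10550 in air, 5632 to 10818 in low smoke and 7782 to 11809 in high smoke, a log2 difference of 0.20 (SE 0.16, adjusted p = 0.415). Within each library the count of AC134224.3 was 0.414 to 0.703 times that of AC134224.1 in air, 0.539 to 0.742 times in low smoke and 0.670 to 0.966 times in high smoke, with medians of 0.552, 0.689 and 0.838. The ratio of AC134224.2 to AC134224.1 had medians of 0.251, 0.261 and 0.304, with high smoke libraries 1 and 3 at 0.486 and 0.470 and the others at 0.253 to 0.330. The rows of this stretch thus took unequal shares of its counts in different libraries, and these ratios were not tested.

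**Figure D2:**
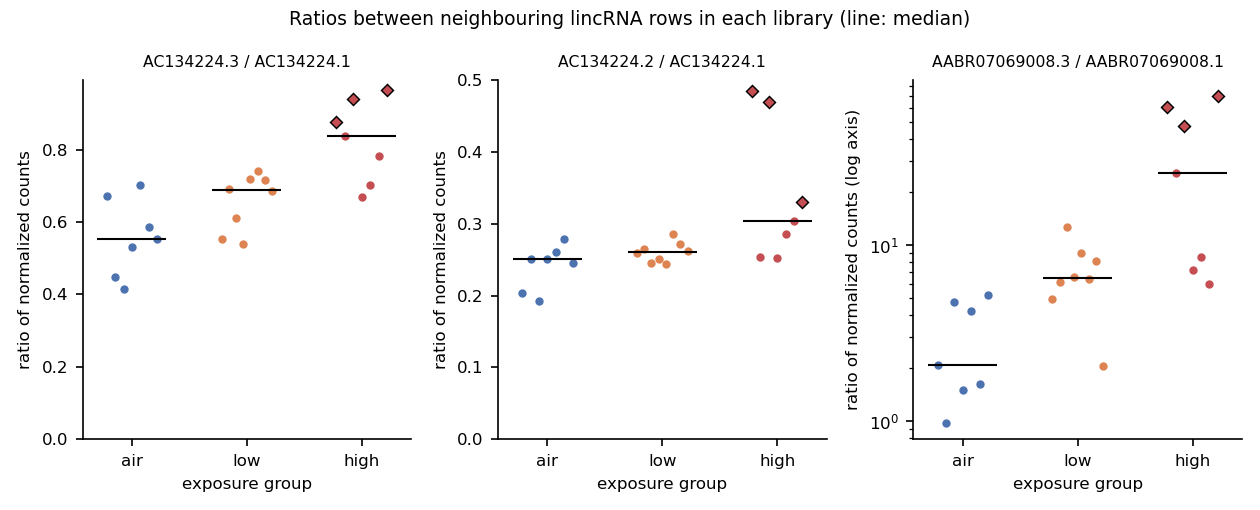
Ratio of the normalized counts of neighbouring lincRNA rows on the same strand in each library, by group, with a line at each group's median; the right panel has a log axis and diamonds mark high smoke libraries 1, 3 and 7. The ratio of AABR07069008.3 to AABR07069008.1 has a median of 2.08 in air, of 6.47 after low smoke and of 25.6 after high smoke. Both rows had already passed in opposite directions, and AABR07069008.1 has a median of only 3.98 normalized counts after high smoke.

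None of the other rises that passed was free of overlap with air. LOC108349594, on chromosome 1 at 134873400 to 134887842, ends 2232 bases upstream of the start of Chd2 on the same strand; Chd2 is a chromatin remodeler. As background, the RNA called Chaserr lies just upstream of Chd2 in other mammals and lowers Chd2 expression; whether this row is its rat counterpart was not established here. LOC108349594 had 447 to 730 normalized counts in air with a median of 533, 475 to 656 in low smoke with a median of 587 and 607 to 900 in high smoke with a median of 710. It rose by 0.39 against air (SE 0.10, limma adjusted p = 0.00933) and by 0.24 without high smoke libraries 1, 3 and 7, which did not pass. Chd2 had 2827 ± 260 normalized counts over the 7 air libraries, 2940 ± 194 over the 8 of low smoke and 2513 ± 257 over the 7 of high smoke (each with its SD). Its difference from air was -0.17 (adjusted p = 0.105), and from low smoke -0.23 (limma adjusted p = 0.0457); without the 3 libraries these were -0.07 and -0.13, and neither passed.

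LOC100912578, on chromosome 3 at 74226407 to 74229067, had 528 to 706 normalized counts in air with a median of 610, 588 to 778 in low smoke with a median of 633 and 653 to 1104 in high smoke with a median of 799. It rose by 0.43 (SE 0.10, limma adjusted p = 0.00420), and libraries 1 and 3 were its 2 highest; without libraries 1, 3 and 7 the change was 0.27 and did not pass. LOC102554500, on chromosome 3 at 4988097 to 4989206, lies within the interval of a row that merges many copies of SNORD36, a small nucleolar RNA that guides ribosomal RNA methylation. It had 45.5 to 140 in air, 86.5 to 143 in low smoke and 111 to 219 in high smoke, and rose by 0.70 (SE 0.19, limma adjusted p = 0.0136), or 0.52 without the 3 libraries, which did not pass. The SNORD36 row rose by 1.86 (limma adjusted p = 0.00109), and by 1.32 without the 3 libraries, which did not pass. LOC100912578 and LOC102554500 had whole numbers of reads in 0 of 22 libraries.

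AC099449.1 (chromosome 1, 215908373 to 215986960), 61461 bases from the growth factor gene Igf2, had 6.65 to 20.6 normalized counts in air, 11.3 to 32.6 in low smoke and 13.6 to 36.6 in high smoke, with medians of 14.7, 17.8 and 24.8. It rose by 0.87 (SE 0.25, limma adjusted p = 0.0206) and by 0.69 without libraries 1, 3 and 7, which did not pass; Igf2 had a difference of 0.25 (adjusted p = 0.188). AABR07034669.1 (chromosome 11, 83412723 to 83417982) had 35.4 to 54.3 in air, 36.6 to 61.8 in low smoke and 45.5 to 160 in high smoke. Its rise of 0.73 (SE 0.22, limma adjusted p = 0.0240) fell to 0.22 without the 3 libraries and did not pass. AABR07068316.2 (chromosome 9, 97784560 to 97785379), 2492 bases downstream of Cops8, a subunit gene of the COP9 signalosome, had 14.7 to 26.9, 16.7 to 32.4 and 23.7 to 45.5 in the 3 groups in the same order. It rose by 0.52 (SE 0.17, limma adjusted p = 0.0442), and by 0.54 without the 3 libraries, which did not pass; the call was also lost when libraries were scaled to the same total (0.44, adjusted p = 0.0799).

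Among the falls, AABR07035005.1 was the single row in which every high smoke library was below every air library. Non-overlap in either direction was found for 3 of 259 lincRNA rows, or 1.16%, and for 1.87% of all genes tested. AABR07035005.1, on chromosome 12 at 3132607 to 3135095, had 25.8 to 60.4 normalized counts in air with a median of 27.0, 22.9 to 37.9 in low smoke with a median of 33.4 and 7.22 to 24.7 in high smoke with a median of 18.4. The change was -0.89 (SE 0.22, limma adjusted p = 0.00870), and -0.68 without high smoke libraries 1, 3 and 7, which did not pass. Its reads were whole in 2 of 22 libraries.

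The most counted row that fell was AABR07033564.2, on chromosome 11 at 27598719 to 27611812. It had 1616 to 2134 normalized counts in air with a median of 1894, 1572 to 2129 in low smoke with a median of 1836 and 1096 to 1749 in high smoke with a median of 1441. Libraries 1, 3 and 7 were its 3 lowest. The change was -0.41 (SE 0.09, limma adjusted p = 0.00352), and -0.24 without them, which did not pass. LOC100911851 (chromosome 11, 27566879 to 27577692), 21027 bases upstream on the same strand and chosen after its values were seen, had 297 to 347 in air, 277 to 317 in low smoke and 224 to 313 in high smoke and changed by -0.24 (SE 0.07, limma adjusted p = 0.0240; -0.16 without the 3 libraries, not passed). The nearest coding gene to both is Bach1, a repressor of antioxidant genes, 199876 and 168036 bases away, with a log2 difference of 0.01 (adjusted p = 0.977).

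Rows with lower counts gave the largest falls. AABR07031399.1, on chromosome 18 at 12224514 to 12284189, had 9.72 to 34.4 normalized counts in air with a median of 25.9, 11.3 to 31.8 in low smoke with a median of 22.9 and 8.68 to 13.6 in high smoke with a median of 11.1. It changed by -1.02 (SE 0.26, limma adjusted p = 0.00986). The high smoke libraries were tightly grouped and air library 3 overlapped them. AABR07000382.1 (chromosome 1, 11766992 to 11772216) had 10.2 to 31.0 in air, 7.70 to 30.001 in low smoke and 7.49 to 15.6 in high smoke, a change of -0.92 (SE 0.29, limma adjusted p = 0.0297). AABR07005794.1 (chromosome 1, 200364371 to 200373127) had 31.7 to 75.1, 35.4 to 62.3 and 15.1 to 43.5, a change of -0.76 (SE 0.21, limma adjusted p = 0.0149). Without high smoke libraries 1, 3 and 7 these changes were -0.83, -0.82 and -0.50, and none passed. AABR07066567.1 (chromosome 9, 11582308 to 11589768), chosen after its values were seen, had means of 16.7 ± 6.43 in air and 8.79 ± 5.81 in high smoke (SD, n = 7 each), a change of -0.98 (SE 0.33, limma adjusted p = 0.0411) and -0.51 without the 3 libraries.

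Further falls are listed with the distance to a coding gene where one is named, whether near or far. AABR07045403.1 (chromosome 20, 46417239 to 46422761) lies 5363 bases upstream of Foxo3, a stress-response transcription factor gene, on the same strand; it had 46.0 to 77.4 normalized counts in air, 40.2 to 73.9 in low smoke and 20.5 to 54.4 in high smoke and changed by -0.54 (SE 0.19, limma adjusted p = 0.0489). Foxo3 had a difference of -0.14 (adjusted p = 0.398). AABR07019209.1 (chromosome 15, 93643039 to 93643566) had 35.9 to 66.0, 24.8 to 48.2 and 26.3 to 44.4 in air, low smoke and high smoke and changed by -0.52 (SE 0.16, limma adjusted p = 0.0297). AABR07059004.1 (chromosome 4, 848551 to 870721) lies 120859 bases from Shh, the gene of a secreted signal in lung development; it had 67.2 to 100, 68.9 to 99.7 and 39.5 to 84.1 and changed by -0.47 (SE 0.15, limma adjusted p = 0.0334). Without high smoke libraries 1, 3 and 7 these 3 changes were -0.43, -0.44 and -0.21, and none passed.

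AABR07008030.1 (chromosome 2, 39619209 to 39630100) had 84.3 to 147 normalized counts in air, 83.5 to 115 in low smoke and 57.8 to 97.8 in high smoke, a change of -0.51 (SE 0.14, limma adjusted p = 0.0138). On chromosome X, 2 of the 17 tested rows passed, or 11.8%, against 9.65% of all tested lincRNA rows and 16.3% of all genes. AABR07038983.1 (chromosome X, 65367912 to 65368640), 2211 bases tail to tail from Vsig4, a complement receptor gene of resident macrophages, had 108 to 163, 100 to 125 and 84.9 to 139 and changed by -0.36 (SE 0.12, limma adjusted p = 0.0415). AABR07039328.2 (chromosome X, 73757664 to 73758389), 4302 bases downstream of the ubiquitin ligase gene Rlim on the same strand, had 319 to 412, 280 to 365 and 269 to 331 and changed by -0.30 (SE 0.08, limma adjusted p = 0.0101). Without libraries 1, 3 and 7 its change was -0.34 (adjusted p = 0.067), and those of AABR07008030.1 and AABR07038983.1 were -0.34 and -0.28; none of these passed. LOC102549506 (chromosome 17, 7602304 to 7619182), chosen after its values were seen, had 194 to 257, 191 to 259 and 136 to 207 and changed by -0.28 (SE 0.09, limma adjusted p = 0.0359; -0.20 without the 3 libraries, not passed).

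**Figure D3:**
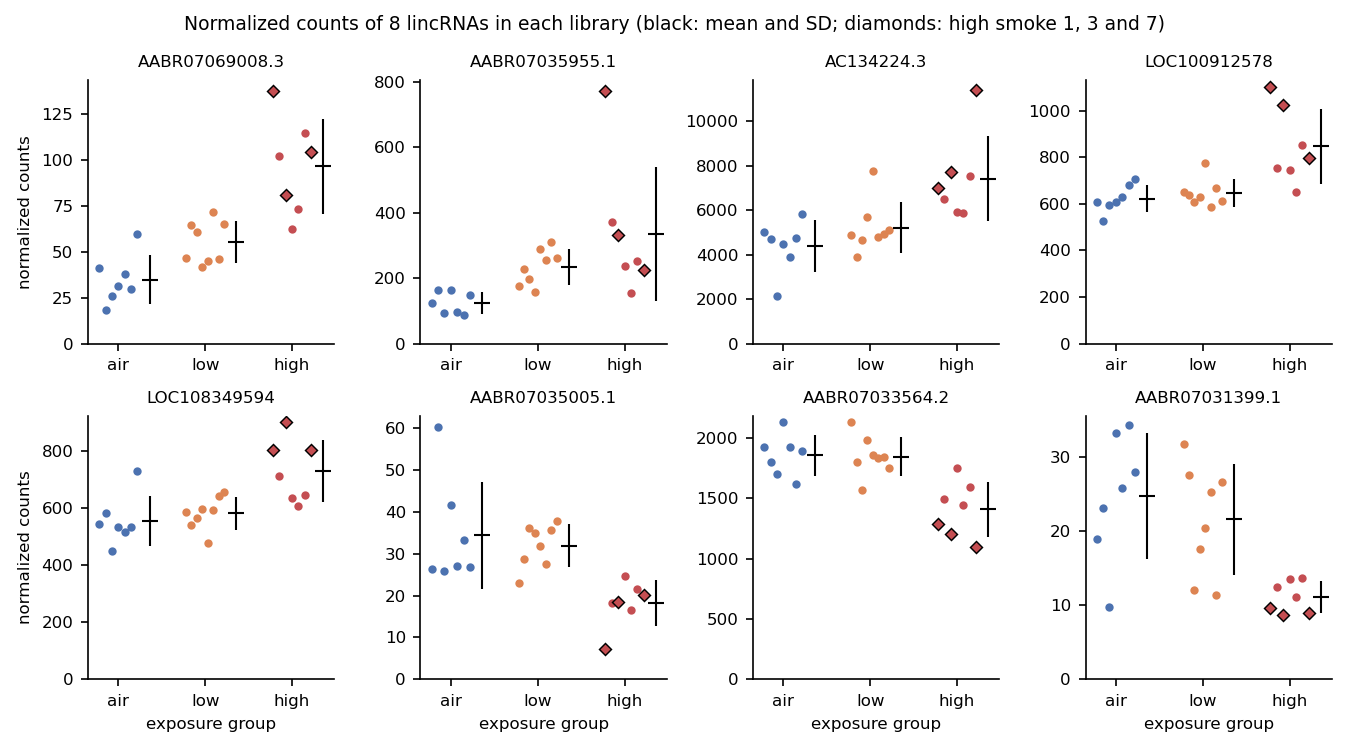
Normalized counts of 8 lincRNA rows in each library by exposure group, with the mean and SD beside each group and diamonds for high smoke libraries 1, 3 and 7. AABR07069008.3 and AC134224.3 are higher in all high smoke than in all air libraries, AABR07035005.1 is lower in all of them, and in AABR07033564.2 the 3 diamonds are the lowest points.

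Leaving out 1 library at a time kept the call of 12 of the 25 rows in every fit and ended that of 13 in some fit. No such count was made over all genes. AC099449.1 no longer passed without air 6 (0.73) or high smoke 7 (0.78), and LOC100911851 without air 1, high smoke 1 or high smoke 7 (-0.23 to -0.20). AABR07034669.1 was lost without air 1, high smoke 1, 3 or 7 (0.55 to 0.67), and so was AC134224.2 (0.60 to 0.62). AABR07019209.1 was lost without air 4, high smoke 1, 2 or 7 (-0.49 to -0.45), and AABR07059004.1 without air 2, 4 or 5 or high smoke 1, 3 or 7 (-0.46 to -0.38). For AABR07000382.1 these were air 1, 4 and 6 and high smoke 1, 3, 6 and 7 (-0.92 to -0.84). AABR07069008.1 was lost without air 1, 2, 4 or 6 or high smoke 1, 2, 3 or 7 (-1.31 to -1.14) and was not tested without low smoke 8, where its mean was under 10; AABR07066567.1 was lost without air 1, 2, 4 or 7 or high smoke 1, 2, 3 or 7 (-0.99 to -0.75), and LOC102549506 without air 1, 2, 5 or 6 or high smoke 1, 2, 3 or 7 (-0.29 to -0.21). AABR07038983.1 was lost without air 1 to 4 or high smoke 1, 2, 3, 6 or 7 (-0.38 to -0.31). The calls nearest the threshold, AABR07068316.2 and AABR07045403.1, were lost in 12 fits (0.42 to 0.52) and 15 fits (-0.57 to -0.39), low smoke libraries included.

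Rows with more counts passed more often, and lincRNA rows are low; in the lower classes their share was near that of coding rows of the same level. With a mean of 10 to 30, 7 of 121 lincRNA rows passed, or 5.79%, against 5.06% of 1659 protein-coding rows. From 30 to 100 it was 7 of 78, or 8.97%, against 9.06%, and from 100 to 300 it was 5 of 32, or 15.6%, against 15.2%. Above that, 3 of 20 passed from 300 to 1000 (15% against 22.3%) and 3 of 8 over 1000 (37.5% against 24.2%), classes that 1 or 2 rows decide. The tested lincRNA rows had a median standard error of 0.23 on the log2 scale, against 0.12 for protein-coding rows, so that a change of a given size is harder to detect for a lincRNA row.

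**Figure D4:**
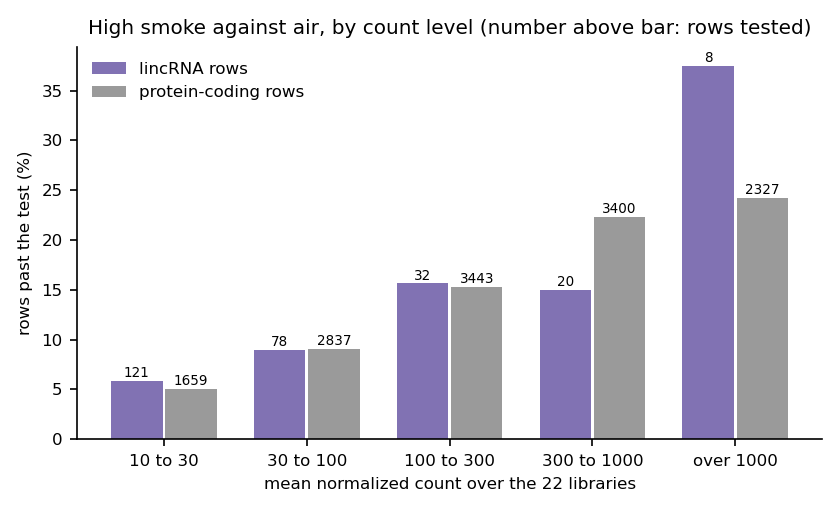
Percentage of lincRNA rows and of protein-coding rows that passed in high smoke against air, by mean normalized count over the 22 libraries; the number above each bar is the number of rows tested. The bars are near each other below 300, and the class over 1000 holds 8 lincRNA rows.

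Many lincRNA rows did not hold whole reads. Of the 259 tested, 154 were whole in at least 75% of libraries and 96 in at most 25%. Among the 25 that passed, 12 were of the first kind and 13 of the second; by direction, 6 and 4 of the rises and 6 and 9 of the falls.

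The second comparison set low smoke against air. No lincRNA row passed in limma (0 of 259, 0%, against 0% of all genes tested), and none passed in the exact rank-sum test. At an unadjusted p under 0.05 there were 19, or 7.34%, against 6.4% of all genes. The 5 rows with the smallest p are given as values. AABR07035955.1 differed by 0.91 (SE 0.24, adjusted p = 0.462), with air at 86.5 to 164 and low smoke at 157 to 311, where low smoke library 4 was the single one under the highest air library. AABR07069008.3 differed by 0.71 (SE 0.20, adjusted p = 0.495), AABR07039328.2 by -0.24 (SE 0.07, adjusted p = 0.495) and AABR07044017.1 by 0.23 (SE 0.09, adjusted p = 0.702). AABR07001634.1 (chromosome 1, 54439977 to 54441580) differed by -0.75 (SE 0.27, adjusted p = 0.702), with 70.5 to 138 normalized counts in air, 20.5 to 137 in low smoke and 57.4 to 129 in high smoke.

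The third comparison set high smoke against low smoke, which tests the difference between the smoke levels directly. Here 11 of 259 lincRNA rows passed, or 4.25%, against 6.78% of all genes tested; 4 rose (3.8% of all genes) and 7 fell (2.98% of all genes). The rises were AABR07069008.3 at 0.77 (SE 0.20), AABR07034669.1 at 0.77 (SE 0.21), LOC100912578 at 0.37 (SE 0.09) and LOC108349594 at 0.32 (SE 0.10), with limma adjusted p-values of 0.0284, 0.0333, 0.0248 and 0.0446. LOC108349594 was thus higher, and its neighbour Chd2 lower, in high smoke than in low smoke. The falls were AABR07031399.1 (-0.84), AABR07035005.1 (-0.84), AABR07021762.1 (-0.68), AABR07008030.1 (-0.53), AABR07059004.1 (-0.52), AABR07033564.2 (-0.40) and AABR07044017.1 (-0.29), the last 2 with limma adjusted p-values of 0.0167 and 0.0454.

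Without high smoke libraries 1, 3 and 7 together 0 lincRNA rows passed, and 0% of all genes. The lincRNA count was also 0 without library 1, 3 or 7 alone, fits for which the share of all genes is not given. In these fits the difference of AABR07069008.3 was 0.68 without library 1, 0.81 without library 3 and 0.75 without library 7, and that of AABR07035005.1 was -0.65, -0.85 and -0.87 in the same order. Without all 3, the rises were 0.65 for AABR07069008.3, 0.26 for AABR07034669.1, 0.22 for LOC100912578 and 0.17 for LOC108349594. The falls were then -0.65 for AABR07031399.1, -0.63 for AABR07035005.1, -0.60 for AABR07021762.1, -0.36 for AABR07008030.1 and -0.26 to -0.21 for AABR07059004.1, AABR07033564.2 and AABR07044017.1, each in the direction it had with all libraries. By the rank-sum test 1 row passed, AABR07035005.1 (1.27% of all genes). Leaving out low smoke libraries lowered the count as well, to 3 without low smoke 1, to 5 without low smoke 2, 4 or 6 and to 7 without low smoke 3. No share of all genes is given for these fits either, so the drops cannot be called particular to lincRNA rows. The rows that passed in this comparison and not against air were AABR07021762.1 and AABR07044017.1. AABR07021762.1 (chromosome 13, 90170001 to 90172759), 11810 bases from Slamf1, a receptor gene of lymphocytes, had 19.7 to 37.5 normalized counts in air, 21.1 to 34.1 in low smoke and 12.3 to 26.7 in high smoke. AABR07044017.1 (chromosome 19, 52995529 to 53010510) lies head to head with Foxf1, a transcription factor gene of lung mesenchyme and endothelium, 1822 bases away; in mouse the RNA Fendrr is read from that position, and no identity is given to the rat row here. It had 427 to 673 in air with a median of 539, 557 to 657 in low smoke with a median of 636 and 414 to 595 in high smoke with a median of 506. Low smoke was thus the highest group, and Foxf1 itself had a difference of -0.16 between high and low smoke (adjusted p = 0.339).

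Tug1 and most of the other abundant rows did not pass in high smoke against air. Tug1 (chromosome 14, 83878295 to 83887585) had 1837 to 2684 normalized counts in air with a median of 2145, 1873 to 2415 in low smoke with a median of 2042 and 1699 to 2187 in high smoke with a median of 1884. Its difference of -0.23 between high smoke and air (SE 0.08, limma adjusted p = 0.0588) did not pass, although it did when each library was scaled to the same total (-0.31, adjusted p = 0.00898) and in 3 of the fits that left out 1 library, those without air 3 (-0.28), air 5 (-0.27) and high smoke 4 (-0.27). Tug1 is read head to head with Morc2, a silencing factor gene 1504 bases away, which had a difference of -0.25 (adjusted p = 0.0509). Of 63 long noncoding RNAs with established names that were looked for, Tug1 was the only one with a lincRNA row; Snhg11 was present as a protein-coding row and Rpph1 as a ribozyme row.

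The other rows among the 10 with the highest means were AC108574.1, AABR07072236.1, LOC103689920, AABR07002627.1 and AABR07064373.2, beside the AC134224 rows and AABR07033564.2. Their differences between high smoke and air were -0.10, -0.07, 0.18, 0.30 and 0.21, and none passed (limma adjusted p from 0.062 to 0.71). AABR07002627.1 (chromosome 1, 78112559 to 78149054), which is read head to head with Dhx34, an RNA decay helicase gene 70 bases away, had the smallest of these p-values; it had 635 to 838 normalized counts in air, 699 to 947 in low smoke and 679 to 1409 in high smoke, and it passed without high smoke 2 (0.37). AABR07064373.2 (chromosome 6, 77378657 to 77399170) lies 18926 bases from Nkx2-1, the transcription factor gene that defines lung epithelium, and had 545 to 867, 613 to 982 and 704 to 958. AABR07072236.1 had 1408 ± 175 over the 7 air libraries, 1410 ± 52.4 over the 8 of low smoke and 1336 ± 55.5 over the 7 of high smoke (each with its SD).

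Measured changes of lincRNA rows were only weakly correlated with those of the nearest coding gene over all pairs. Of the 259 tested rows, 166 had no coding row within 10 kb, and 18 of these passed, or 10.8%, against 9.65% of the tested lincRNA rows and 16.3% of all genes. Of the 24 rows read head to head with a coding gene none passed. Of the 21 rows upstream of a coding gene on the same strand 2 passed, of the 19 downstream 2, of the 11 tail to tail 2, of the 5 overlapping on the opposite strand 1, and of the 13 overlapping on the same strand 0. Across the 210 rows with a tested nearest coding gene, Pearson's r between the changes was 0.061 and Spearman's rho 0.051. Of these rows 136 had no coding row within 10 kb (r 0.15). On the same strand r was 0.27 downstream (15 rows), 0.18 upstream (18) and -0.16 when overlapping (9). It was -0.16 head to head (21), -0.64 tail to tail (6) and -0.02 when overlapping on the opposite strand (5). These values are across genes that share the same libraries and describe them only. The tested lincRNA rows had a median absolute change of 0.21 and a median standard error of 0.23 on the log2 scale. Noise of that size lowers such correlations, so a low r does not show that no relation exists.

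**Figure D5:**
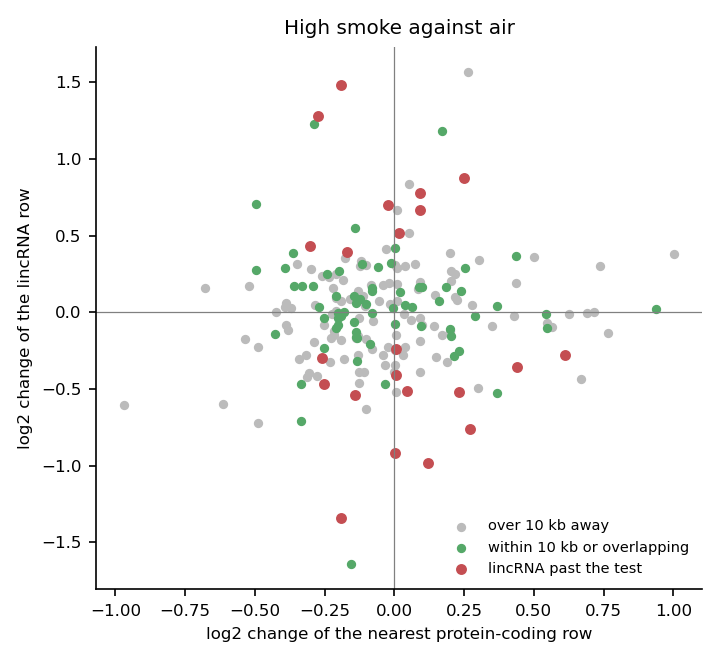
Log2 change of each tested lincRNA row (vertical axis) against that of its nearest protein-coding row (horizontal axis), both for high smoke against air. The points lie around the origin without a slope (Pearson's r 0.061 over 210 rows), and the rows that passed are found on all sides.

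Pairs of tested lincRNA rows within 50 kb of each other numbered 15, of which 12 were on the same strand. In 2 pairs both members passed, AABR07069008.3 with AABR07069008.1 in opposite directions and LOC100911851 with AABR07033564.2 both downward, and in 3 pairs 1 member passed. The changes of 5 same-strand pairs had opposite signs.

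Genes that make, keep and degrade nuclear noncoding RNA were looked at as whole lists, since the nuclear exosome removes many lincRNAs. Of 18 tested genes of the exosome and its cofactors, 3 rose and 1 fell in high smoke against air, with a median of 0.08. Mtrex, the helicase that feeds RNA to the nuclear exosome, rose from 1393 ± 215 to 2118 ± 508 normalized counts (SD, n = 7 each), or 1.499-fold (limma adjusted p = 0.00247), and was the list's single rise against low smoke, where 3.8% of all genes rose. Tent4b, a nuclear poly(A) polymerase that marks RNA for decay, fell from 1097 ± 83.8 to 915 ± 71.4 (limma adjusted p = 0.00491). The core subunit genes Exosc6 and Exosc3, chosen after their values were seen, rose by 0.84 and 0.57. Without high smoke libraries 1, 3 and 7 none of the 18 passed, with differences of 0.36 for Mtrex, -0.19 for Tent4b, 0.79 for Exosc6 and 0.67 for Exosc3 against air.

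Among 15 genes of paraspeckle proteins, a nuclear body built on a long noncoding RNA, none rose and 3 fell, with a median of -0.09. Hnrnph3, an RNA-binding protein gene, fell by 0.59 (limma adjusted p = 0.00187) and Taf15 by 0.55 (limma adjusted p = 0.0155). Against low smoke 3 of 15 fell, where 2.98% of all genes fell. Of 16 genes listed for the Integrator complex and early termination, which ends many noncoding transcripts, 1 rose and 4 fell, with a median of -0.06. The single rise was Arglu1 (0.40, limma adjusted p = 0.0457), chosen after its values were seen. It is not an Integrator subunit gene, while all 4 falls were of Ints genes. Ints2 fell by 0.37 (limma adjusted p = 0.0165) and Ints7 by 0.25 (limma adjusted p = 0.0312). Without high smoke libraries 1, 3 and 7 no gene of these lists passed, and the differences were -0.33 for Hnrnph3, -0.21 for Taf15, -0.33 for Ints2 and -0.21 for Ints7. None of 11 genes of m6A writing and nuclear poly(A) binding passed. No gene of these lists passed in low smoke against air. The shares are to be read against the 16.3% of all genes that passed.

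Whole lung holds many cell types, and in bulk RNA fewer cells of a type and less RNA per cell cannot be told apart. In high smoke against air, 3 of 7 alveolar type 2 genes, 2 of 7 alveolar type 1 genes and 2 of 5 red cell genes rose and none of these fell, where 9.21% of all genes rose and 7.05% fell. Of the airway (5 tested), endothelial (6) and B and plasma cell genes (6), 1 rose and 1 fell each, 1 of 6 macrophage genes fell, and none of the cardiac muscle (5), T and NK cell (6) or neutrophil genes (6) passed. Summed red cell counts were 4822 to 7148 in air, 4530 to 9151 in low smoke and 7091 to 14582 in high smoke, and summed B and plasma cell counts 348 to 1315, 448 to 1126 and 926 to 1915. Without high smoke libraries 1, 3 and 7, 1 alveolar type 2 gene rose, 1 B or plasma cell gene fell and no other listed marker or mitochondrial transcript passed. No listed marker with a row was at 0 throughout; Foxj1, Pecam1, Nppa, Marco, Hba1 and Hbb-b1 had no row under those names. Of 8 transcripts of the mitochondrial genome 3 fell, and their summed counts were 98464 to 131928 in air and 69905 to 139758 in high smoke. The part of cell types and of RNA quality in the lincRNA changes was not tested.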

How the data were processed

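Values were the authors' normalized signal per gene, deposited as 1 table for 22 libraries: per the submitters' processing notes, reads were aligned with STAR 2.7.3a to rn6 and processed in Partek with DESeq2. RNA selection and the use of strand in counting were not given in the sources used here. The value of 1 read in a library was taken as the most frequent value from 0.5 to 1.6, and depth as the total divided by it. The low counts are partly fractional, so log2(value + 1) was tested with limma 3.58.1 in R 4.3.3: 1 model of the 3 groups, intensity trend, two-sided tests, Benjamini-Hochberg adjustment over 14414 genes with a mean of at least 10. On simulated data for high smoke against air, 62 of 100 genes changed 1.5-fold and 88 of 100 changed 2-fold were called, with 5 false calls among 14211 unchanged genes. The changed genes were drawn from all gene types, and the noise was normal and independent between genes. Standard errors of lincRNA rows were larger (median 0.23, against 0.12 for protein-coding rows), so these rates are not those of lincRNA rows.

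The members, gene lists and tests were chosen with earlier results of these data known. Named lincRNAs were up to 10 rises and 10 falls in high smoke against air with a mean of at least 20 in a group, up to 5 and 5 in the other comparisons or the 5 smallest p, the 10 highest means and described RNAs; of other lists, the 2 smallest p that passed. Neighbours were the nearest protein-coding rows in rn6 coordinates, leaving out rows over 1 Mb long. Gene names and start windows came from RefSeq (GRCr8), a different build from that of the files. Alternatives were the pseudocount, filter, scaling, array weights, robust shrinkage, 2-group fits, an exact rank-sum test and leaving out libraries.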

Additional observations from a re-analysis of the deposited data

Results flagged for a closer look

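In 35 named lincRNA rows, 105 groups of 7 or 8 libraries were checked for a library far from the others by Dixon's criterion, and 10 were found. Chance alone flags about 1 in 20 groups of independent, normally distributed values. The counts were checked without a log scale and the groups share their libraries, so 10 of 105 cannot be judged against that rate. In high smoke, library 1 had 772 normalized counts of AABR07035955.1 (next 373), library 7 had 11403 of AC134224.3 (next 7738), library 3 had 1409 of AABR07002627.1 (next 951) and library 6 had 19.1 of AABR07069008.1 (next 8.64). In low smoke, library 5 had 7786 of AC134224.3 (next 5682) and 778 of LOC100912578 (next 669), library 4 had 61.8 of AABR07034669.1 (next 47.5) and library 8 had 31.7 of AABR07069008.1 (next 11.2). In air, library 6 had 37.5 of AABR07021762.1 (next 25.5) and library 7 had 4304 of AC108574.1 (next 2963). All 10 were the highest library of their group.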

How the results depend on the processing

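No named row changed direction under any alternative run; of their 1621 alternative values, 258 lost a call and 7 gained one. In high smoke against air, 25 lincRNA rows passed; this became 14 with only the 2 groups in the fit, 7 by the rank-sum test and 2 without high smoke libraries 1, 3 and 7. Leaving out 1 library gave 13 to 34, with 15 without air 1, 13 without high smoke 1, 16 without high smoke 3 and 13 without high smoke 7. Shares of all genes are not given for the 2-group fit or any fit without 1 library. Whether those counts are particular to lincRNA rows cannot be told from them. Scaling to the same total moved the split from 10 rises and 15 falls to 9 and 22, with a median shift of -0.08 over all genes. In high smoke against low smoke, 11 became 1 by the rank-sum test and 0 without those 3 libraries, and 0 to 14 when 1 library was left out. Low smoke against air gave 0 under every alternative run. Without a filter on low values 29 passed, 22 of them among the 25, and 7 were rows not tested otherwise. No paired analysis was possible because replicate numbers only follow accession order. The 633 rows with a mean under 10 were not tested in the main comparisons.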

Other observations

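Among lincRNA rows too low for the main test, 7 passed in the fit without a filter on low values, and 5 of them were lower in high smoke. AABR07002493.1 had 12.6 ± 4.37 normalized counts in air and 5.15 ± 1.96 in high smoke (SD, n = 7 each), AABR07027254.1 had 10.2 ± 0.956 and 4.20 ± 5.08, and AABR07044414.1 had 12.2 ± 4.92 and 4.29 ± 4.44. AABR07050288.1 and AC116288.1 were lower as well, at 6.06 ± 3.47 against 2.08 ± 2.63 and 2.90 ± 0.813 against 0.900 ± 1.66. AABR07006888.1 and AABR07062915.3 were higher, at 5.55 ± 1.25 in high smoke against 2.88 ± 2.55 in air and 1.92 ± 1.38 against 0.268 ± 0.462. These are values of a few reads per library, and the rows were chosen because they passed.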
